A study of Drosophila melanogaster with 12 samples.

Results

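The genes described here encode structural proteins of the Drosophila egg shell: the vitelline membrane genes Vm26Aa, Vm26Ab, Vm32E and Vm34Ca, the early chorion genes Cp36 and Cp38, and the late chorion genes Cp15, Cp16, Cp18 and Cp19. They were chosen by name, as ovary transcripts that do not follow gut and muscle transcripts on head arrays. The members are the probe sets annotated to them. Of the 10 genes, 9 had a probe set annotated to them alone, 1 each, out of 14010 probe sets and 10844 genes with a probe set of their own on the array. No annotated probe set was found for Vm26Ab, so it has no value below. The flies were y w, a strain with body and eye colour markers that serves as wild type for the circadian clock. They were kept in constant darkness, moved as early pupae into a thermocycle of 18 °C and 25 °C in alternate spells of 12 h, left in it for 4 days or more after eclosion, and harvested every 4 h. The CA day (cold/ambient) comprised 3 arrays from the 18 °C cryophase (CA2, CA6 and CA10) and 3 from the 25 °C thermophase (CA14, CA18 and CA22). The following AA day was spent at constant 25 °C and comprised the same hours, of which AA2, AA6 and AA10 are the subjective cryophase and AA14, AA18 and AA22 the subjective thermophase. Each time point was 1 pool of heads on 1 Affymetrix Drosophila Genome array, so the 3 hours of a phase stand in for replicates. The sources used here do not state the sex of the flies.

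The egg shell is made in the ovary by the follicle cells, a somatic epithelium that surrounds each egg chamber. These cells secrete the vitelline membrane before the chorion, and they express the early chorion genes before the late ones. The chorion genes lie in clusters that follicle cells amplify, which allows a large output of chorion protein in a short time. Heads contain no follicle cells, so these transcripts are markers of ovary in a head preparation. In pooled tissue, a smaller amount of a cell type and less transcript per cell cannot be told apart.

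Array medians lay between 5.56 and 5.60 on the log2 scale. All 9 photoreceptor genes with a probe set, of 16 listed, passed the filter on low values, which removed probe sets at or below the 20th percentile of their array on most arrays and left 11145. Transcripts of tissues outside the head varied between the arrays. A body-tissue index, the mean log2 deviation of 62 gut, muscle, accessory gland and testis markers from their own means, was lowest on CA10 (-1.47) and highest on CA18 (1.09), CA14 (0.77), AA14 (0.50) and AA18 (0.39). The other 7 arrays had an index of -0.40 to 0.06. All 9 egg-shell genes lay above the 20th percentile on all 12 arrays. The values carry no detection calls, so a baseline level cannot be told from nonspecific hybridization, and levels are not compared between probe sets.

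Vitelline membrane transcripts came in a variable pair, Vm26Aa and Vm34Ca, and a flat one, Vm32E. Vm26Aa, a structural protein of the membrane, was at log2 levels of 6.89, 6.88, 7.10, 6.92, 7.61 and 6.98 from CA2 to CA22, and at 6.97, 6.93, 7.24, 7.49, 7.61 and 7.61 from AA2 to AA22. Vm34Ca, another membrane protein, was at 6.43, 6.66, 6.73, 6.56, 7.77 and 6.60 on the CA day, and at 6.84, 6.58, 6.82, 7.36, 7.52 and 7.76 on the AA day. Both were high on CA18 and on all 3 arrays of the AA subjective thermophase, and the highest value of each on the other 8 arrays lay below all 4 of these. From CA14 to CA18 the Vm34Ca level was higher by 1.20 on the log2 scale (2.30-fold), and from CA18 to CA22 it fell by 1.17. Vm32E, a vitelline membrane protein that is also deposited in the endochorion, stayed between 7.04 (CA14) and 7.26 (AA6). Its SD over the 12 arrays, 0.063, was larger than that of only 7.53% of all probe sets past the filter, whereas the SDs of Vm26Aa (0.31) and Vm34Ca (0.49) were larger than those of 94.8% and 97.3%.

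The early chorion transcripts were flat on the CA day and high late on the AA day. Cp36, a major early chorion protein, was at 7.04, 6.95, 7.02, 6.95, 7.07 and 7.04 from CA2 to CA22, a range of 0.12, and at 7.17, 7.19, 7.46, 7.56, 8.31 and 9.08 from AA2 to AA22. The AA values were in the order of the hours, and AA22 stood 1.96 above the median over the 12 arrays, a 3.90-fold difference. Cp38, its partner in the same gene cluster, was at 6.01, 6.02, 6.24, 5.97, 5.94 and 5.77 on the CA day, and at 6.07, 6.0, 6.34, 6.29, 6.55 and 7.30 on the AA day. It had its highest value on AA22 as well, 1.25 above its median (2.38-fold), and AA18 came next. Neither transcript was high on CA18, where Vm26Aa and Vm34Ca were.

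The late chorion transcripts differed among themselves. Cp15, the most variable of the egg-shell genes, was at 6.38, 6.57, 6.44, 6.47, 10.02 and 6.29 from CA2 to CA22, and at 6.34, 6.54, 7.16, 8.14, 9.70 and 7.45 from AA2 to AA22. Its CA18 value was 11.8-fold that on CA14 and 13.3-fold that on CA22, the neighbouring hours. Its SD, 1.32, ranked 4 among the 11145 probe sets past the filter. On the AA day Cp15 was higher on each array from AA6 to AA18, and from AA18 to AA22 it fell by 2.25.

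Cp18, encoded beside Cp15, was at 7.36, 7.29, 7.43, 7.23, 7.61 and 7.16 on the CA day, and at 7.34, 7.30, 8.38, 7.93, 8.73 and 7.33 on the AA day. It was high on AA10, AA14 and AA18 and back near its median on AA22, while its CA18 value was 0.26 above that median. Cp16 was at 7.73, 7.78, 7.85, 7.79, 7.73 and 7.73 on the CA day, and at 7.80, 7.90, 8.76, 7.78, 8.57 and 7.83 on the AA day. Cp19 was at 6.0, 6.02, 6.25, 6.0, 5.86 and 6.03 on the CA day, and at 6.04, 5.99, 6.87, 6.06, 6.54 and 6.11 on the AA day. Both Cp16 and Cp19, also chorion structural proteins, were high on AA10 and AA18 alone, with AA14 between them near the CA level. On CA18, where Cp15 had its highest value, Cp16 and Cp19 had their lowest.

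**Figure D1:**
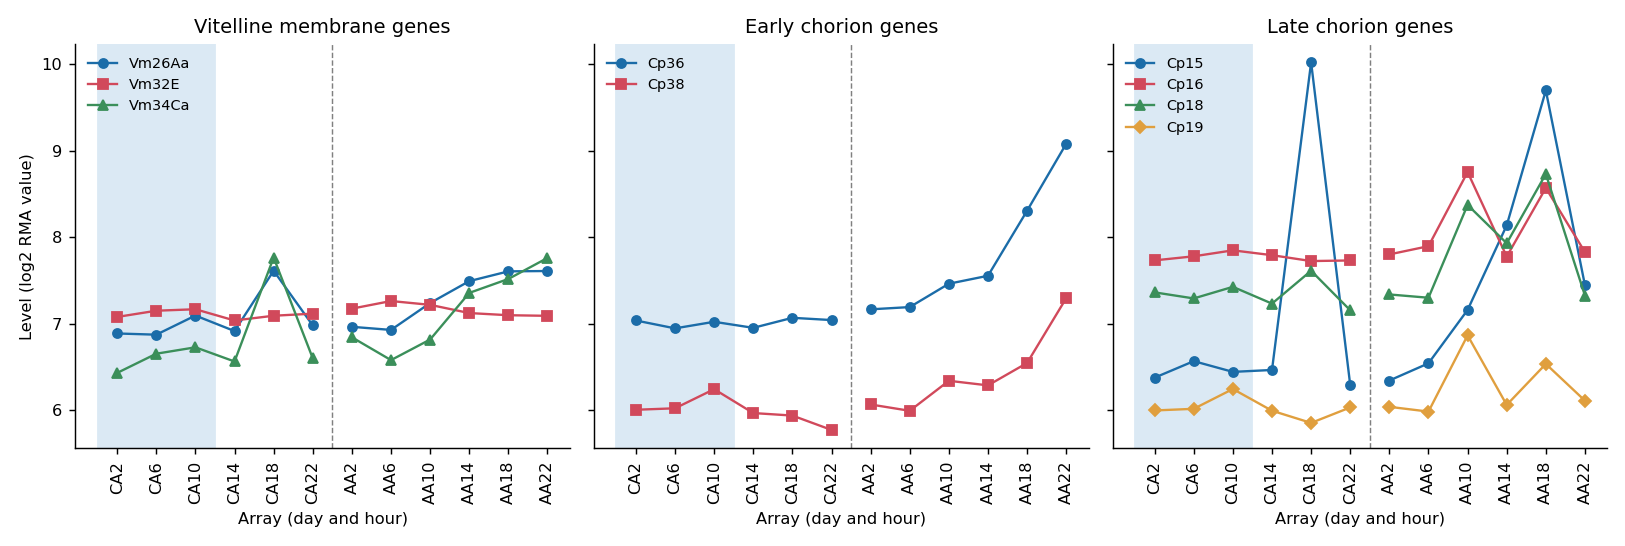
Level (log2 RMA value) of each egg-shell gene on the 12 arrays, in the order of collection, with the 3 arrays at 18 °C shaded and a dashed line between the CA and the AA day. Each point is 1 array. Cp15 reaches 10.02 on CA18 and 9.70 on AA18, Cp36 climbs to 9.08 on AA22, and Vm32E stays between 7.04 and 7.26.

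Set against its own median over the 12 arrays, a member was counted as raised where it lay more than 0.3 above it on the log2 scale. Of 108 values, 26 were raised, 3 on the CA day and 23 on the AA day. On CA18 the 3 were Vm26Aa, Vm34Ca and Cp15. AA10 had 5 raised members (Cp36, Cp15, Cp16, Cp18 and Cp19), AA14 had 5 (Vm26Aa, Vm34Ca, Cp36, Cp15 and Cp18), AA18 had 8 (all but Vm32E), and AA22 had 5 (Vm26Aa, Vm34Ca, Cp36, Cp38 and Cp15). No member was raised on the other 7 arrays. By the same measure, 9.69% of all probe sets past the filter were raised on CA18, 0.781% on AA10, 5.46% on AA14, 3.73% on AA18 and 0.924% on AA22. CA14, on which 7.09% of all probe sets were raised, had none of the 9. At this cut the combination of members therefore differed from array to array. AA10 had the late chorion genes and Cp36 without the vitelline membrane genes. AA22 had Vm26Aa, Vm34Ca and the early chorion genes with Cp15 but without Cp16, Cp18 and Cp19. On AA10, Vm26Aa and Cp38 lay 0.202 and 0.296 above their medians, and a cut of 0.2 counts both as raised.

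**Figure D2:**
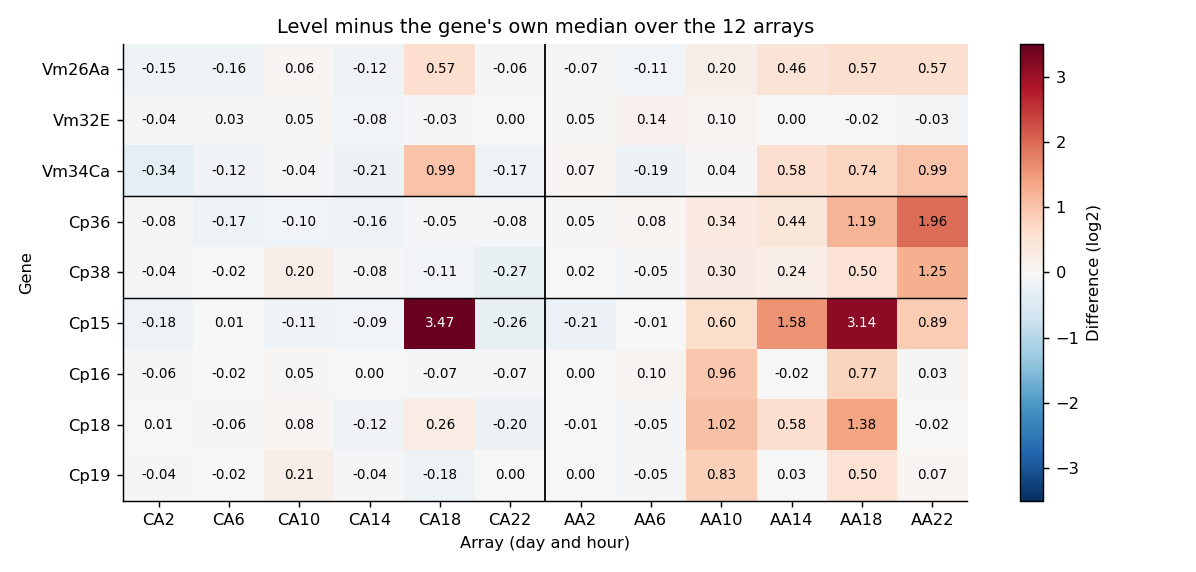
Difference (log2) of each egg-shell gene on each of the 12 arrays from its own median over them, with vitelline membrane, early chorion and late chorion genes in 3 blocks. Red is higher and blue lower. The red cells of CA18 are limited to Vm26Aa, Vm34Ca and Cp15 with a paler Cp18 (0.26), whereas AA18 holds 8 values above 0.3.

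The likeness of these patterns was described with Pearson's r over the 12 arrays for each of the 36 pairs, which share the same RNA pools and are not independent over time. Vm26Aa and Vm34Ca had r = 0.96 (Spearman's rho 0.88), and within each day r was 0.98 (CA) and 0.94 (AA). Cp16 and Cp19 had r = 0.95 (rho 0.62), with 0.82 on the CA day and 0.97 on the AA day. Cp36 and Cp38 had r = 0.94 (rho 0.64), of which 0.97 was found on the AA day and -0.19 on the CA day, when both were flat. Cp18 was most like Cp16 (r = 0.86, rho 0.35).

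Over the 12 arrays Cp15 was more like Vm26Aa and Vm34Ca than like the other late chorion genes. Its r was 0.86 with Vm26Aa and 0.84 with Vm34Ca (rho 0.67 and 0.71), against 0.65 with Cp18, 0.31 with Cp16 and 0.14 with Cp19. Within the AA day, which leaves out CA18, that order did not hold: its r was 0.81 with Vm26Aa, 0.78 with Cp18, 0.67 with Vm34Ca, 0.43 with Cp16 and 0.37 with Cp19. Over the 10 pairs of the same class the median r was 0.71 and over the 26 pairs of different classes 0.32. Vm32E had an r between -0.28 and 0.32 with every other member, -0.27 with Cp15. Within the AA day, over its narrow range of 0.17, it ran opposite to several of them, with an r of -0.96 with Vm34Ca, -0.87 with Vm26Aa, -0.77 with Cp36, -0.71 with Cp38 and -0.68 with Cp15. In the RefSeq annotation (Release 6 plus ISO1 MT), Cp18, Cp15, Cp19 and Cp16 are consecutive protein-coding genes on chromosome arm 3L and Cp36 and Cp38 are neighbours on the X chromosome, so class and gene cluster cannot be told apart. Vm26Aa, Vm32E and Vm34Ca lie on arm 2L with other genes between them.

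**Figure D3:**
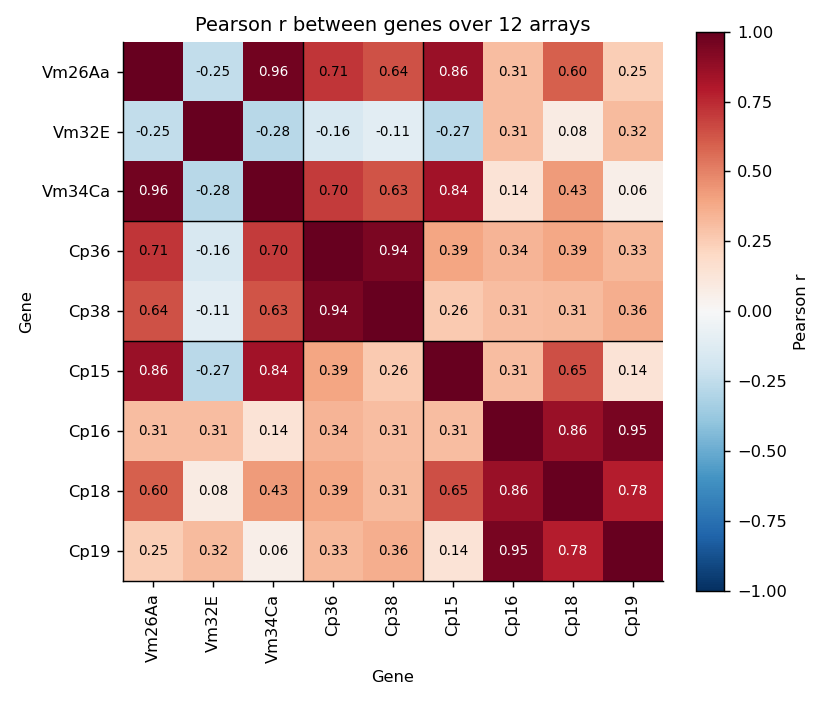
Pearson's r over the 12 arrays between each pair of egg-shell genes, with lines between vitelline membrane, early chorion and late chorion genes. Red is positive. Vm26Aa with Vm34Ca (0.96), Cp36 with Cp38 (0.94) and Cp16 with Cp19 (0.95) are the closest pairs, and the row of Vm32E is pale.

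Cold was compared with warmth within the thermocycle, as CA cryophase minus CA thermophase in limma's group model, with p-values adjusted over all 11145 probe sets by Benjamini-Hochberg. No egg-shell gene passed an adjusted p of 0.05, and 0% of all probe sets did. At an unadjusted p under 0.05 there were 0 of 9 members, against 21.4% of all probe sets. The median difference of the members was 0.027, and that of all probe sets 0.051. Cp15 had the largest difference, 6.46 ± 0.097 (SD, n = 3) in the cryophase and 7.59 ± 2.11 (SD, n = 3) in the thermophase, a difference of -1.13 (SE 0.84, limma adjusted p = 0.43). It rested on CA18, without which it was 0.084, and those of Vm34Ca (-0.37) and Vm26Aa (-0.22) were likewise 0.022 and 0.0038 without that array. With the body-tissue index as a covariate the Cp15 difference was -0.11 (SE 0.88), that of Cp36 moved from -0.019 to -0.30 (SE 0.30) and that of Cp18 from 0.027 to 0.25 (SE 0.39). Cp38 was the only member whose phases did not overlap, higher at 18 °C (6.09 ± 0.13 against 5.89 ± 0.11, SD, n = 3), where 12.6% of all probe sets did so in that direction. None of the 9 lay wholly lower at 18 °C, where 5.08% of all probe sets did.

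The same hours were compared at constant temperature, as AA subjective cryophase minus AA subjective thermophase. Vm26Aa, Vm34Ca and both early chorion transcripts had lower means in the subjective cryophase, although no gene on the array passed the adjusted threshold (0% of all probe sets). Cp36 was at 7.28 ± 0.16 in the subjective cryophase and 8.32 ± 0.76 in the subjective thermophase (SD, n = 3), a difference of -1.04 (SE 0.27, 2.06-fold, limma adjusted p = 0.98). Vm34Ca was at 6.75 ± 0.15 and 7.55 ± 0.20 (-0.80, SE 0.26), and Vm26Aa at 7.05 ± 0.17 and 7.57 ± 0.066 (-0.53, SE 0.16). Cp38 differed by -0.58 (SE 0.20) and Cp15 by -1.74 (SE 0.84). Without AA22 the differences were -0.66 for Cp36 and -0.28 for Cp38, and without AA18 that of Cp15 was -1.11.

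Cp18 (-0.32, SE 0.33), Cp16 (0.093, SE 0.24) and Cp19 (0.061, SE 0.20), which were high on AA10 as well as on AA18, had differences within 1 SE of 0. An unadjusted p under 0.05 was found for 5 of the 9 members (Vm26Aa, Vm34Ca, Cp36, Cp38 and Vm32E, the last higher in the subjective cryophase by 0.11), against 2.93% of all probe sets. Without AA6 that count was 3. The 3 hours of the subjective cryophase all lay below those of the subjective thermophase for Vm26Aa, Vm34Ca, Cp36 and Cp15, 4 of 9 members against 3.71% of all probe sets. They lay above them for Vm32E, 1 of 9 against 6.64%. Members that vary together are not independent of each other, so these counts do not add evidence gene by gene. With the body-tissue index as a covariate, the difference was -1.14 (SE 0.25) for Cp36, -0.77 (SE 0.25) for Vm34Ca, -0.52 (SE 0.16) for Vm26Aa and -1.37 (SE 0.73) for Cp15.

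**Figure D4:**
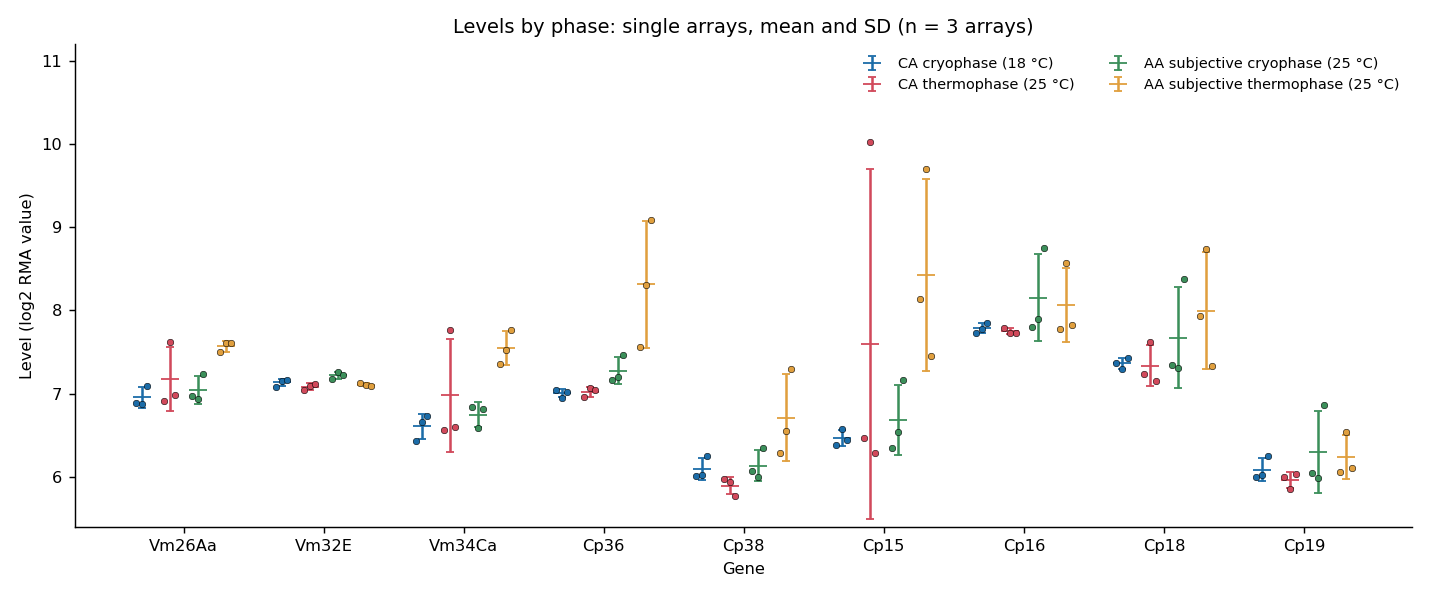
Levels (log2 RMA value) of the egg-shell genes in the 4 phases, with each array as a point and the mean and SD over 3 arrays as bars. The AA subjective thermophase lies above the AA subjective cryophase without overlap for Vm26Aa, Vm34Ca, Cp36 and Cp15, and the wide bar of Cp15 in the CA thermophase is the single CA18 value of 10.02.

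The change of this contrast between the days was tested directly. The difference of the differences (CA minus AA, the contrasts sharing no array) was largest for Cp36 (1.02, SE 0.39) and Cp38 (0.77, SE 0.29), both with a limma adjusted p of 0.93. These were the 2 members of 9 with an unadjusted p under 0.05, against 3.6% of all probe sets, and 0% of all probe sets passed the adjusted threshold. Without CA18 the count was 5. Without AA22 the values were 0.64 for Cp36 and 0.48 for Cp38.

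Between the days, each of the 9 members had a lower mean in CA than in AA, as did 54.8% of all probe sets. The 9 photoreceptor genes were all lower in CA as well, with a median difference of -0.085. Cp36 differed the most beyond its spread, at 7.01 ± 0.050 on the CA day and 7.80 ± 0.75 on the AA day (SD, n = 6), a difference of -0.78 (SE 0.19, 1.72-fold, limma adjusted p = 0.33). Its highest CA value, 7.07, lay below its lowest AA value, 7.17. It was the only member without overlap between the days, which 0.386% of all probe sets shared in this direction and 0.17% in the other, where there were 0 members. Cp38 differed by -0.43 (SE 0.14), Cp18 by -0.49 (SE 0.24), Cp16 by -0.34 (SE 0.17) and Cp15 by -0.53 (SE 0.59). Without AA22 the Cp38 difference was -0.28, and without AA18 those of Cp18, Cp16 and Cp15 were -0.30, -0.21 and -0.21.

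The median difference of the members was -0.36, and that of all probe sets -0.0092. No member passed the adjusted threshold (0% of all probe sets), and 3 had an unadjusted p under 0.05 (Vm26Aa, Cp36 and Cp38), against 8.25% of all probe sets. That count was 5 without CA18 or without AA6, and 6 with the hour as a block. Without CA18 the differences of Cp15 (-1.13, SE 0.33), Vm34Ca (-0.55, SE 0.086) and Vm26Aa (-0.36, SE 0.068) were larger. The CA day came before the AA day in a single course, so day, temperature regime and age cannot be told apart.

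A 24-h cosine was fitted to each day. On the CA day 0.368% of all probe sets passed the adjusted threshold and 19.3% an unadjusted p under 0.05, and among the members both counts were 0. On the AA day 0% passed the adjusted threshold and 3.52% the unadjusted one, which 5 of 9 members did (Vm26Aa, Vm34Ca, Cp36, Cp38 and Cp18). The fitted AA amplitude was 0.79 (SE 0.19) for Cp36 with a peak at 19.8 h, 0.44 (SE 0.15) for Cp38 at 19.9 h, and 0.57 (SE 0.18) for Vm34Ca at 18.8 h. Vm26Aa had 0.38 (SE 0.11) at 17.5 h, Cp15 1.46 (SE 0.54) at 16.8 h and Cp18 0.62 (SE 0.18) at 14.7 h. Among these the fitted AA peaks ran from Cp18 through Cp15, Vm26Aa and Vm34Ca to the early chorion genes, and that of Vm32E was at 6.97 h. This order is of fitted times and not of the arrays with the highest level. Cp18 was lower on AA14 (7.93) than on AA10 (8.38) and AA18 (8.73), on either side of its fitted peak. Cp36, Cp38 and Vm34Ca had their highest AA values on AA22, after their fitted peaks. Cp16 and Cp19 had fitted peaks at 12.9 and 13.02 h, beside AA14, where both were near the CA level. Both were high on AA10 and AA18, a pattern that a single 24-h cosine cannot describe, so these are not times of highest level. Each fit came from 6 arrays over 1 cycle, with limma adjusted p-values of 0.98 or more. Without AA22 the amplitude was 0.50 for Cp36 and 0.23 for Cp38. The 5 members were 2 with a trended and robust prior and 1 without AA6.

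Gut, muscle and male reproductive transcripts were high on some of the arrays with raised egg-shell members and low on others. CA18, AA14 and AA18 combined a high index (1.09, 0.50 and 0.39) with raised members, CA14 had an index of 0.77 and no raised member, and AA10 and AA22 had 5 raised members each at an index of -0.33 and -0.40. Over the 12 arrays Cp15 had r = 0.57 with the index (rho 0.36), with a two-sided permutation p of 0.045 that became 0.41 after Benjamini-Hochberg adjustment over the 9 members. Without CA10 and CA18, the arrays farthest from the median of the index, its r was 0.33. Within the days it was 0.58 on the CA day and 0.71 on the AA day.

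Cp36 had r = -0.054 (permutation p = 0.82, adjusted 0.82), Cp38 -0.24, Cp16 -0.082, Cp18 0.18 and Cp19 -0.30. Vm26Aa had 0.29, Vm34Ca 0.34 and Vm32E -0.51 (permutation p = 0.10, adjusted 0.46). No member passed an adjusted p of 0.05, with the gut and muscle markers alone as well. These genes were chosen as ones that do not follow gut and muscle transcripts, with earlier results of these data known. The tests therefore describe the values and lend that trait no independent support. Within the CA day, Cp19 had r = -0.95 with the index over 6 arrays (exact permutation p = 0.0028, adjusted 0.05 over 18 within-day tests), over a range of 0.39. That p is the smallest that the orders of 6 arrays allow, so a single member could not fall below an adjusted 0.05 there. On the AA day the r of Cp19 was -0.064.

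**Figure D5:**
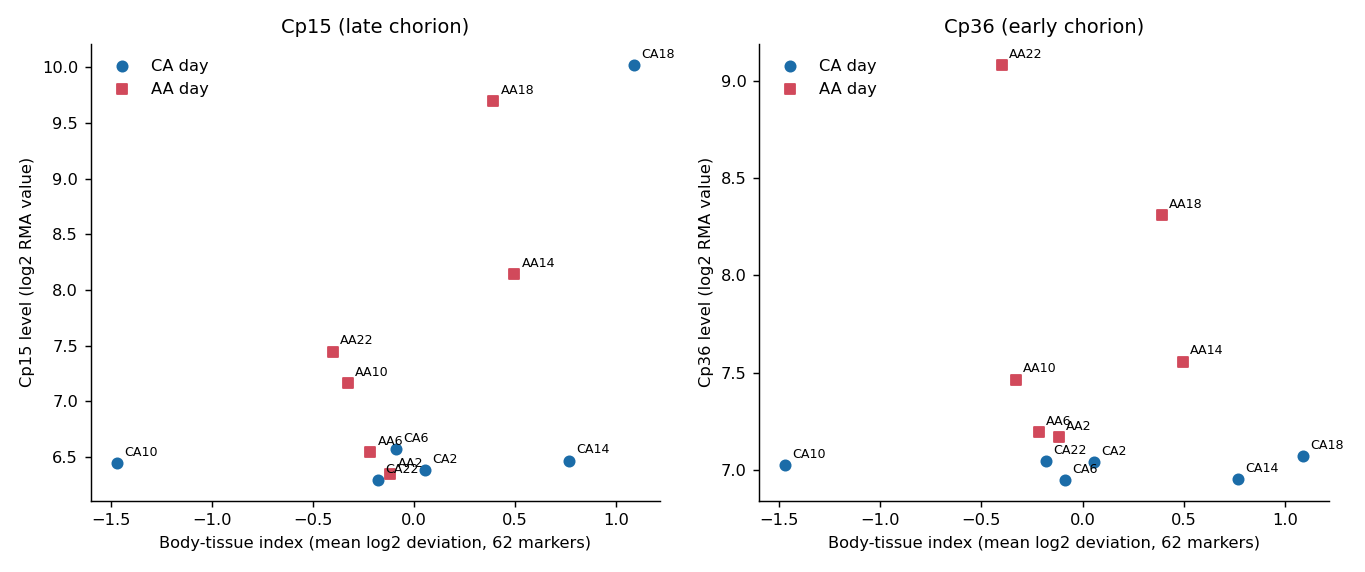
Level (log2 RMA value) of Cp15 and of Cp36 against the body-tissue index (mean log2 deviation of 62 markers) on the 12 arrays, with CA arrays as circles and AA arrays as squares. Cp15 is above 8 on CA18, AA18 and AA14, the index of which is 0.39 or more, while CA14 at 0.77 lies at 6.47. Cp36 has its highest level, 9.08, at an index of -0.40.

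Other genes of egg-shell assembly were examined as a list of 16, of which 12 had a probe set and 9 passed the filter. In the AA contrast all 9 were lower in the subjective cryophase, as were 41.7% of all probe sets. Their median was -0.22, against 0.017 over all probe sets. The differences of psd (-0.024, SE 0.069), clos (-0.0053, SE 0.076) and Fcp3C (-0.00067, SE 0.076) were within 1 SE of 0. An unadjusted p under 0.05 was found for 3 of the 9 (2.93% of all probe sets) and an adjusted one for none. On the CA day 6 were higher and 3 lower in the cryophase, where 65.3% of all probe sets were higher, with a median of 0.054. By the rule for named genes, values are given for psd, which encodes a vitelline membrane protein (6.50 to 6.76 over the 12 arrays), yellow-g2, an egg-shell member of the Yellow family (6.0 to 6.58), and the follicle cell gene Fcp3C (5.49 to 5.87), which are not set against each other.

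Selected after the values were seen, Cp7Fc, a chorion gene beside Cp36 on the X chromosome, lay between 5.13 and 5.49 on the CA day and had its highest values on AA14 (6.24) and AA22 (6.10). Its AA difference was -0.60 (SE 0.13, limma adjusted p = 0.98). Likewise yellow-g, a paralogue of yellow-g2, had its highest value on AA22 (6.20), and dec, which encodes the dec-1 egg-shell proteins, was at 5.89 on AA22 and at 5.39 or below on every other array. Of the 9 genes, 5 had an r over 0.5 with the mean profile of the members (each centred on its mean), against 2.66% of all probe sets. The r of the others was 0.497 for Cp7Fc, 0.081 for psd, -0.19 for Fcp3C and -0.28 for clos.

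Of 26 oocyte and nurse cell genes, 23 had a probe set and 11 passed the filter. An r over 0.5 with the mean profile was found for 4 of the 11, against 2.66% of all probe sets. The median r of the 11 was 0.31, and it was negative for gnu (-0.50), tud (-0.37), grk (-0.18) and stau (-0.066). In the AA contrast 8 were lower and 3 higher in the subjective cryophase (41.7% and 58.2% of all probe sets), 2 had an unadjusted p under 0.05 (2.93% of all probe sets) and none an adjusted one. CycB, which encodes a mitotic cyclin, was at 6.53, 6.51, 6.57, 6.73, 7.03 and 6.67 on the CA day, and at 6.60, 6.68, 7.03, 7.21, 7.19 and 7.19 on the AA day. Its higher arrays were CA18 and AA10 to AA22, the arrays with raised egg-shell members. exu, which acts in localizing bicoid RNA, ranged from 5.79 (CA10) to 7.33 (CA18), the arrays of lowest (-1.47) and highest (1.09) body-tissue index. The part of the index in the exu levels was not tested. stau, which also acts in RNA localization, ranged from 7.17 (CA14) to 7.77 (AA22).

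Of the 4 female fat body genes listed, 3 were at the top of the arrays. The yolk protein gene Yp3 (14.32 to 14.48) was the highest probe set of every array. Yp1 (14.16 to 14.35) and Yp2 (13.67 to 14.09), also yolk protein genes, lay below it. Yp2 had a range of 0.42, and Yp1 and Yp3 had 0.19 and 0.16, against a median of 0.365 over all probe sets past the filter. Whether their signal was saturated was not tested, so their values are not read as amounts of female tissue. fit, a female-enriched fat body gene named after its values were seen, lay between 8.0 and 9.22 on the CA day and between 8.82 and 9.57 on the AA day. Its difference between the days was -0.78 (SE 0.17, limma adjusted p = 0.27), in the direction of the egg-shell members. The share of females in each pool is not given, and its part in the egg-shell levels was not tested.

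The mean profile of the members is of values centred but not scaled, so members of wide spread such as Cp15 weigh more in it. Single members, which are part of it, had an r with it from -0.13 (Vm32E) to 0.93 (Vm26Aa), with 0.50 for Cp19 and 0.59 for Cp16. Likeness to the profile is thus not likeness to each member. The 15 named probe sets most like it over the 12 arrays, members apart, had an r from 0.73 to 0.91. Germline and female transcripts were among them: CycB (0.91), the maternal tubulin alphaTub67C (0.88), the ribosomal protein gene RpS5b (0.88), dhd, a thioredoxin of the female germline (0.83), zpg, a germline gap junction protein (0.78), and yl, the vitellogenin receptor of the oocyte (0.75). dhd had the widest range of the 15, at 3.70, 4.34, 4.26, 5.49, 6.60 and 5.61 on the CA day and at 3.75, 4.96, 6.82, 6.49, 7.02 and 7.41 on the AA day. It was above 6 on CA18 and on AA10 to AA22, and unlike the egg-shell genes it was also higher on CA14 and CA22 than on CA2 to CA10.

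RpS5b was between 6.50 and 7.15 on the 7 arrays with no raised egg-shell member and between 7.58 and 7.91 on the other 5. Fad2 (0.81) and eloF (0.79), a desaturase and an elongase of female cuticular hydrocarbon synthesis, Hsp26, a small heat shock protein (0.73), RanGAP (0.74), the mucin gene Muc12Ea (0.81) and CG13994, CG11674, CG3701 and CG13114 completed the list. Leaving out AA18 kept r between 0.64 and 0.92 for these 15.

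Single members had neighbours of their own. Cp36 was closest to CG13114 (r = 0.95) and then Cp38, and Cp38 to Cp36, CG13114 (0.90) and yellow-g (0.90). Cp16 and Cp19 were closest to each other and then to dUTPase, which encodes a nucleotide hydrolase (0.89 with each). Cp15 was closest to Muc12Ea (0.95), Drs, which encodes the antifungal peptide drosomycin (0.94), and CG14499 (0.92). The closest probe set to Vm32E was dos (0.93), and no other egg-shell gene was among the 100 most like it. Nothing about shared function or control follows from such likeness over 12 arrays.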

How the data were processed

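Head RNA of y w flies was hybridized to 12 Affymetrix Drosophila Genome arrays, 1 per time point. The authors made the deposited values with RMA (background correction, normalization across arrays and 1 summary value per probe set), and its version is not given in the sources used here. Their range fits a log2 scale, although the base is not named, and they were used as deposited, without scanner files. The sample labels gave the day (CA or AA) and the hour of every array, and none was left out. The platform annotation gives 1 gene name for 12443 of 14010 probe sets, several for 327 and none for 1196, apart from 44 controls. Names were updated through gene identifiers.

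Control probe sets and those not above the 20th percentile of their array on most of the 12 arrays were left out. R 4.3.3 and limma 3.58.1 fitted a model of 4 groups of 3 arrays and a 24-h cosine model with a mean and 2 cosine terms for each day, with Benjamini-Hochberg adjustment over 11145 probe sets. The scripts were tested on simulated data first. Correlations with the body-tissue index used 100000 permutations, or all orders within a day of 6 arrays (Python 3.11.15, SciPy 1.17.1), and figures used matplotlib 3.10.9. Alternatives were no filter, another variance prior, a common array median, the hour as a block, all 9 arrays at 25 °C, the index as a covariate, gut and muscle markers alone, and leaving out arrays.

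The named genes are the 10 members, the 3 of highest mean level in each of the lists of other egg-shell, oocyte and female fat body genes, and the 15 probe sets with 1 name most like the mean member profile. Others were named after their values were seen. The members and lists were chosen with earlier results of these data known. Depth is not defined for arrays, and their number limits the precision. Nothing says that the pools of a phase are separate cultures, so p-values measure the spread between hours, which includes change over time.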

Additional observations from a re-analysis of the deposited data

Results flagged for a closer look

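In each gene and each day of 6 arrays, the array farthest out was set against the rest, 18 such groups in all, of which chance alone picks out about 1 in 20. Cp15 on CA18 (10.02) stood apart from the other 5 arrays of the CA day, the nearest of which was at 6.57, and the gap took up 0.93 of the range. On the same array, Vm34Ca (7.77) stood apart from a nearest value of 6.73 (0.78 of the range) and Vm26Aa (7.61) from 7.10 (0.70). The 3 lie on 1 RNA pool and are not independent. CA18 also had the highest body-tissue index (1.09) of the 12 arrays. With the index as a covariate, the CA difference moved from -1.13 to -0.11 (SE 0.88) for Cp15. It moved from -0.37 to -0.29 (SE 0.31) for Vm34Ca and from -0.22 to -0.20 (SE 0.19) for Vm26Aa. The part of the index in the CA18 values themselves was not tested.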

How the results depend on the processing

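No egg-shell gene passed an adjusted p of 0.05 in any of the 6 tests under any alternative, and the filter, the common array median and the index with gut and muscle markers alone changed no direction. With 18 °C set against all 9 arrays at 25 °C, the members' median moved from 0.027 to -0.31, and Vm32E (-0.0029), Cp38 (-0.15), Cp16 (-0.20), Cp18 (-0.31) and Cp19 (-0.078) turned negative. The index as a covariate turned Cp38 (-0.042) and Cp19 (-0.0041) in the CA contrast. With the hour as a block, 6 members rather than 3 had an unadjusted p under 0.05 between the days, and with a trended and robust prior 2 rather than 5 did in the AA cosine.

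Leaving out each array in turn gave 3 to 6 such members in the AA contrast, 2 to 5 in its change between days, 2 to 5 between the days and 1 to 5 in the AA cosine. The members' median change between days ran from -0.016 to 0.53. Directions turned for several members, none of them past the threshold, with ranges in the CA contrast of -1.78 to 0.084 for Cp15, -0.062 to 0.17 for Cp18, -0.053 to 0.0088 for Cp36, -0.34 to 0.0038 for Vm26Aa and -0.58 to 0.022 for Vm34Ca. In the AA contrast they were -0.21 to 0.35 for Cp16, -0.68 to 0.043 for Cp18 and -0.22 to 0.22 for Cp19. For the change between days they were -0.037 to 1.83 for Cp15, -0.31 to 0.25 for Cp16, -0.016 to 0.70 for Cp18 and -0.090 to 0.35 for Cp19. The cause was not tested. Alternatives chosen after seeing the data, a raised cut of 0.2 or 0.5, a median without CA18 and a median over the CA arrays, gave 31, 22, 25 and 28 raised values in place of 26.

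With 1 array per hour, no scanner files and no detection calls, change over the day cannot be told from the spread between pools, and low levels cannot be told from background.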
